A study of Gallus gallus with 8 samples.

Results

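The equatorial epithelium (EQ) is the ring of the embryonic lens in which epithelial cells leave the cell cycle and begin to become fiber cells. Genes whose transcript level in EQ lay outside the range of the 3 other regions were picked out of RNA-sequencing of microdissected lenses of chicken embryos at embryonic day 13 (E13). The other regions were the central epithelium (EC), whose cells are not differentiating, the cortical fibers (FP) and the central fibers (FC). Each region was sequenced as 2 libraries, 8 in all, each from a pool of 100 lenses that were cut into the 4 regions, so regions may come from the same lenses. The labels give no treatment, strain or genotype for any region. The deposited value is 1 FPKM for each locus and region, that is, sequenced fragments scaled to transcript length and to library size, pooled over both libraries, with the 95% interval that the authors' program cuffdiff estimated. There is therefore no spread between libraries, no standard deviation and no test over samples, and the number of reads behind a value is unknown.

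A gene was taken as higher in EQ when its EQ level was 2-fold or more above the highest of EC, FP and FC, with 1 FPKM or more in EQ. A gene was taken as lower when its EQ level was 2-fold or more below the lowest of EC, FP and FC, with 1 FPKM or more in all 3 of them. Before the ratios were taken, EC, FP and FC were moved by the median log2 ratio of EQ over that region among the 9068 loci with 1 FPKM or more everywhere, which was 0.27 for EC, 0.30 for FP and 0.21 for FC. All folds are on these centred values, whereas the FPKM and intervals given for single genes are as deposited. Of 12823 loci with a gene symbol, 9319 passed 1 of the 2 minimums, and 297 of these formed the set described here, with 175 genes higher and 122 genes lower in EQ.

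At the lens equator, fibroblast growth factor (FGF) from the ocular fluids, bone morphogenetic protein (BMP) and Notch signals are known to control the balance between division and fiber differentiation. BMP receptors act through SMAD proteins on targets such as the ID genes, whose products block basic helix-loop-helix transcription factors. Notch receptors, cut after binding to Jagged or Delta on a neighboring cell, act through RBPJ on the HES and HEY repressors. Cells that pass the equator elongate, accumulate crystallins and later lose their organelles.

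The genes higher in EQ made up 1.9% of the 9226 that passed the minimum, and the genes lower in EQ made up 1.47% of 8301. With the same rule, EC was 2-fold above every other region at 764 genes (8.09%) and 2-fold below at 247 genes (2.97%). FP was above at 68 genes (0.757%) and below at 35 (0.419%), and FC was above at 79 (0.881%) and below at 49 (0.587%). FP and FC had very similar profiles (Pearson r of 0.99 on log2 FPKM across 8208 genes, which are not independent replicates), so that few genes can stand out in 1 of them. EQ therefore held 16.1% of all genes that were 2-fold highest in a single region and 26.9% of those that were 2-fold lowest, although without centring the shares were 28.1% and 14.1%, so that their order turned round. Since the tissue was sequenced in bulk, a lower level cannot be told apart from fewer cells that make the transcript.

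**Figure D1:**
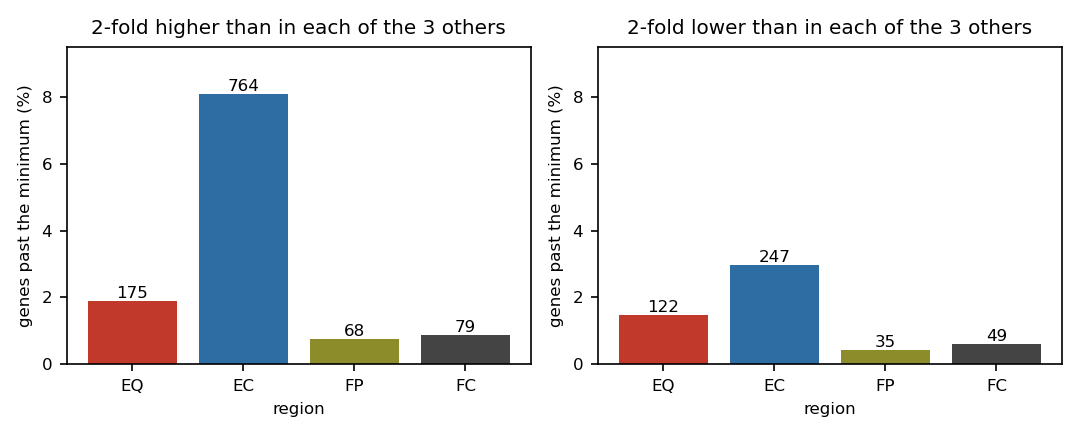
Genes 2-fold higher (left) or lower (right) in 1 region than in each of the 3 others, as the percent of the genes that passed the minimum of 1 FPKM for that region, with the number of genes above each bar. EQ, with 175 genes higher and 122 lower, lay below EC and above both fiber regions in both panels.

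The cuffdiff intervals were wide, and they separated few of the genes. At 9 of the 175 higher genes (0.0976% of the genes tested) the lower bound in EQ lay above the upper bounds in EC, FP and FC after centring, and at 3 of the 122 lower genes (0.0361%) the upper bound in EQ lay below the lower bounds of the others. With the same rule, EC had 60 such genes above every other region (0.636%) and 8 below (0.096%). FC had 1 above and 0 below, and FP had 0 in both directions. When the EQ bound was set against the centred FPKM of the other regions instead, 56 higher and 113 lower genes were still apart. These counts cannot be compared with each other. Most intervals are roughly symmetric about the FPKM and start at 0 or above, so the upper bound is seldom far over 2-fold the FPKM. A gene 2-fold lower in EQ therefore passes almost by construction. Among the 26 higher genes with 100 FPKM or more in EQ, the lower bound lay above the other centred FPKM for 2, ID2 and FSHB. This compares with 54 of the 149 higher genes below that level. The gene just inside the upper threshold was RD3, with a log2 ratio of 1.01, and the gene just outside was CASZ1, with 0.998 (18.9 FPKM in EQ, against 7.85 in EC, 3.26 in FP and 3.49 in FC). At the lower threshold SLC24A6 was the gene just inside, 2-fold lower in EQ, and SLC39A5 was the gene just outside, with a log2 ratio of -0.997.

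The higher genes differed in which region came next. EC was the highest of the other regions at 115 of the 175, FC at 37 and FP at 23. Of these genes, 33 were 2-fold higher in EC than in both fiber regions, and 12 were 2-fold higher in both fiber regions than in EC. Their median level in EQ was 12.2 FPKM, with a range of 1.04 FPKM for MLN to 34093 FPKM for CRYBB2, and their median log2 ratio to the highest other region was 1.44. The lower genes had a median of 1.08 FPKM in EQ. The rule itself favors a low value there, since it sets no minimum in EQ for these genes. Of the 122, 42 were 2-fold higher in both fiber regions than in EC. The shares of these patterns over all genes are not given here, so the counts only describe the set. Across all genes compared, EQ was also closer to EC (Pearson r of 0.93 on log2 FPKM) than to FP or FC (0.81 each).

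**Figure D2:**
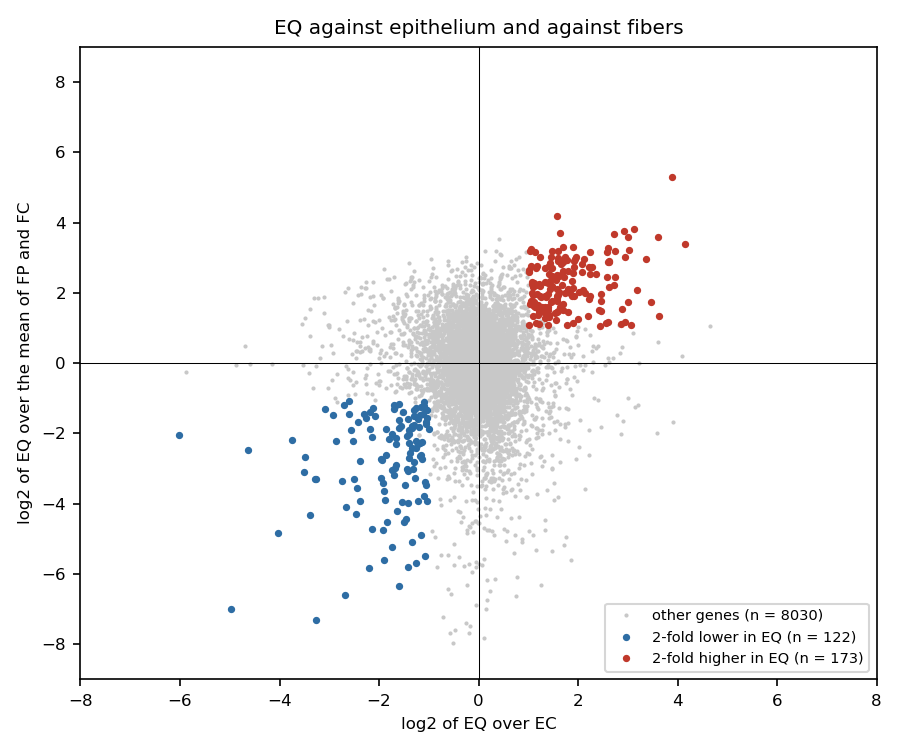
Each point is a gene, with the log2 ratio of centred FPKM in EQ over EC on the horizontal axis and in EQ over the mean of FP and FC on the vertical axis. The genes 2-fold higher in EQ (red, 173 of 175 with a ratio on both axes) fill the upper right corner and the 122 lower genes (blue) the lower left, where their distance from the fibers reaches further than their distance from EC.

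Of the 9 higher genes with separate intervals, the largest ratio was that of STEAP1 (chromosome 2, 21523752 to 21535943 on Galgal4). STEAP1 is a membrane protein named as an epithelial antigen of the prostate. It had 15.5 FPKM in EQ (95% interval 3.61 to 27.5), against 1.06 in EC (0.356 to 1.76), 0.974 in FP (0.103 to 2.45) and 1.18 in FC (0.226 to 2.69). The 3 other regions lay close together, and EQ was 11.2-fold above the highest of them. FABP3, a fatty acid binding protein, had 26.0 FPKM in EQ (7.82 to 43.9), against 2.46 in EC (0.237 to 4.51), 1.49 in FP (0.237 to 2.61) and 1.57 in FC (0.237 to 2.85), and was 8.74-fold higher. HGD, homogentisate dioxygenase of tyrosine breakdown, had 50.3 FPKM in EQ (17.1 to 83.6), against 5.23 in EC (1.02 to 9.53), 2.63 in FP (0.597 to 4.69) and 4.39 in FC (0.341 to 8.45). In both genes EC was the next highest region, with an interval that ended below that of EQ. EDG7, an older symbol of the lysophosphatidic acid receptor LPAR3, had 12.5 FPKM in EQ (5.24 to 19.8), against 1.29 in EC (0.291 to 2.33), 0.729 in FP (0 to 1.46) and 1.54 in FC (0.146 to 3.06).

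The Notch target HEYL (chromosome 23, 5434026 to 5440779) was a further gene of this kind, with 32.1 FPKM in EQ (12.5 to 51.7), against 3.95 in EC (0.492 to 7.99), 1.96 in FP (0.722 to 3.22) and 3.99 in FC (1.52 to 6.45). SLC12A3, a sodium chloride cotransporter best known from the kidney, had 21.8 FPKM in EQ (8.88 to 34.6), against 2.92 in EC (1.03 to 4.75), 2.10 in FP (0.775 to 3.41) and 2.86 in FC (1.08 to 4.60). RELN, the secreted glycoprotein reelin that guides migrating neurons in the mammalian brain, had 27.9 FPKM in EQ (8.48 to 47.2), against 3.84 in EC (1.28 to 6.40), 2.13 in FP (0.815 to 3.46) and 3.14 in FC (0.996 to 5.30). These 3 genes were 6.72-fold, 6.18-fold and 6.00-fold above the highest other region, in that order. The sulfotransferase CHST9, with 18.1 FPKM in EQ (7.28 to 28.9), was 4.64-fold higher than EC with 3.23 (0.959 to 5.37), and had 2.12 in FP (0.575 to 3.64) and 2.41 in FC (0.575 to 4.41). KCNV1, a modifier subunit of voltage-gated potassium channels, had 7.70 FPKM in EQ (3.38 to 12.0), against 1.66 in EC (0.543 to 2.80), 0.539 in FP (0.0835 to 1.00) and 1.13 in FC (0.250 to 2.05), which was 3.84-fold.

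Several genes had a larger or similar ratio but an EQ interval that reached into those of the other regions. CER1, the secreted antagonist Cerberus that binds Nodal and BMP, had 391 FPKM in EQ, against 18.3 in EC, 28.6 in FP and 33.7 in FC, a log2 ratio of 3.32. Its EQ interval ran over 12.2 to 1012 FPKM, and that of FC over 3.64 to 95.7. CYP1B1, a cytochrome P450 that oxidizes steroids and retinoids, had 478 FPKM in EQ (13.5 to 965), against 52.1 in EC (17.8 to 86.2), 23.6 in FP (4.97 to 45.9) and 36.2 in FC (5.78 to 81.5). MXRA5, an adhesion protein of the extracellular matrix, had 297 FPKM in EQ (3.92 to 625), against 31.9 in EC, 25.2 in FP and 35.8 in FC. For these 3 genes the intervals did not separate EQ from EC or the fibers, although the single values in EQ were 7.15-fold or more above every other region. FAM198B (135 FPKM in EQ, against 17.1, 7.35 and 10.4 in EC, FP and FC), ADAMTSL3 (7.90, against 1.07, 0.754 and 1.02) and FSHB (110, against 14.9, 9.29 and 9.61) were each over 6-fold higher, and in ADAMTSL3 and FSHB the lower bound in EQ (2.56 and 26.1) lay above the FPKM of every other region. THBS1, the matrix protein thrombospondin 1, had 257 FPKM in EQ (27.7 to 485), against 41.4 in EC, 31.5 in FP and 42.2 in FC.

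Among all genes, the highest ratio belonged to STARD8 (27.7 FPKM in EQ, against 1.55 in EC, 0.678 in FP and 0.487 in FC). Its locus is merged with the microRNA gga-mir-6594, and the EQ value lay outside its own interval of 0.449 to 25.2, so it was left out of the ranking. GRIA3, an AMPA-type glutamate receptor subunit at a locus merged with an unnamed Ensembl gene, had 30.2 FPKM in EQ (0.0255 to 231), against 2.42 in EC, 3.41 in FP and 3.08 in FC. A second AMPA receptor gene, listed as GLUR1/A, had 12.2 FPKM in EQ (4.68 to 19.7), against 1.64 in EC, 2.20 in FP and 2.37 in FC.

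**Figure D3:**
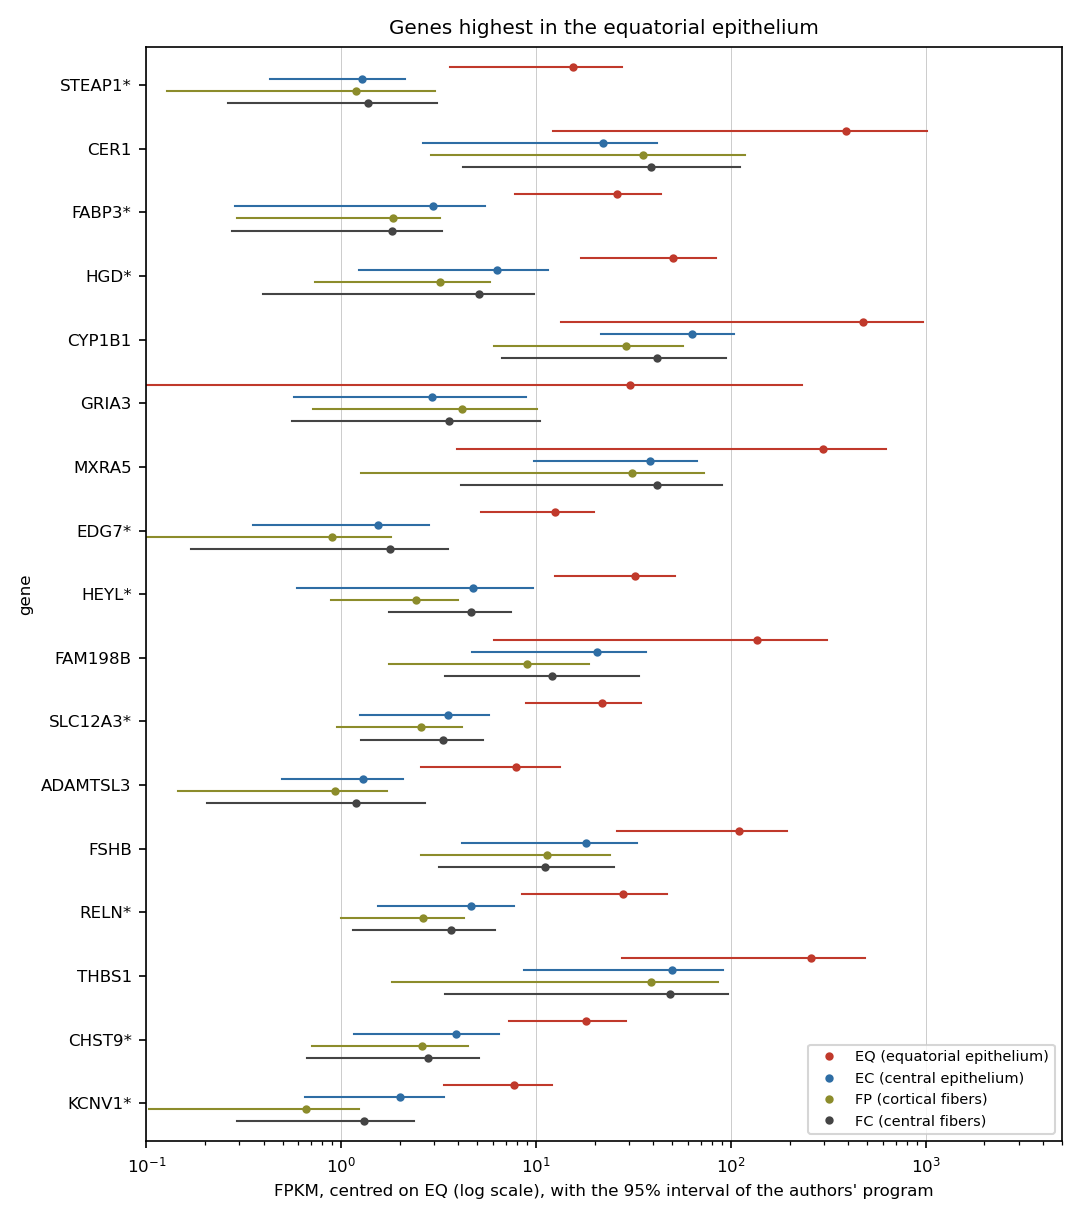
Centred FPKM on a log axis in EQ (red), EC (blue), FP (olive) and FC (grey), as points with their 95% intervals, for the 15 genes with the largest ratio and 5 FPKM or more in EQ and for all genes whose EQ interval lies above the others (asterisks). Lower bounds under 0.1 run to the left edge, and the red points lie 3.84-fold or more to the right of the others, while the red bars of the genes without an asterisk overlap at least 1 other bar.

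The BMP pathway list held 5 genes higher in EQ among 23 past the minimum, and 1 lower gene among 19. Over all genes tested the shares were 1.9% and 1.47%, which also belong beside the counts of the lists below. The list median of the log2 ratio to the highest other region was -0.20, against -0.39 over all genes tested. Besides the antagonist CER1, the higher genes were the inhibitory SMAD6, the activin subunit INHBB and the targets ID1 and ID2. ID2 had 253 FPKM in EQ (77.7 to 429), against 44.3 in EC (9.03 to 80.2), 28.5 in FP (3.85 to 108) and 45.0 in FC (7.57 to 88.6), which was 4.74-fold. ID1 had 79.3 FPKM in EQ, against 10.9 in EC, 26.2 in FP and 32.9 in FC, so that it was higher in both fiber regions than in EC and 2.08-fold higher in EQ than in FC. ID3 had 124 FPKM in EQ, against 68.3 in EC, 26.7 in FP and 29.3 in FC, and its log2 ratio of 0.59 did not reach the threshold. INHBB had 6.75 FPKM in EQ, against 1.63 in EC, 0.665 in FP and 0.827 in FC, and SMAD6 had 7.93 FPKM in EQ, against 2.47 in EC, 2.47 in FP and 2.67 in FC. The ligand BMP4 had the opposite shape, with 0.661 FPKM in EQ (0.131 to 1.18), against 2.93 in EC, 1.42 in FP and 2.13 in FC, 2.64-fold below the lowest of them. The antagonists CHRDL1 (34.0 FPKM in EQ, against 136 in EC, 7.40 in FP and 5.60 in FC) and NBL1 (82.7, against 290, 33.7 and 27.8) lay between EC and the fibers. The most abundant member after CER1 and ID2 was FSTL1, a follistatin-like glycoprotein, with 125 FPKM in EQ, against 272 in EC, 38.5 in FP and 49.7 in FC.

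In the Notch pathway list, 4 of 16 genes were higher in EQ (25%, against 1.9% of all genes tested) and 0 of 16 were lower. By any margin, 8 were highest in EQ. The list median was 0.02. All 4 are targets or feedback regulators of the pathway. Besides HEYL, HES5 had 70.9 FPKM in EQ (27.7 to 114), against 18.9 in EC (8.21 to 29.6), 3.50 in FP (1.24 to 5.73) and 5.76 in FC (2.02 to 9.44), which was 3.10-fold. HEY1 had 105 FPKM in EQ (7.18 to 244), against 41.5 in EC, 7.84 in FP and 10.8 in FC. NRARP, an inhibitor that Notch itself induces, had 101 FPKM in EQ (20.2 to 105), against 10.9 in EC, 33.3 in FP and 42.2 in FC, and both genes were just past the threshold with 2.09-fold and 2.06-fold. The 4 targets thus differed in their second-highest region, which was FC for NRARP and EC for the others, although FC nearly equaled EC for HEYL. The receptors NOTCH1 (19.1 FPKM in EQ, against 15.1 in EC, 3.85 in FP and 4.24 in FC) and NOTCH2 (26.3, against 15.7, 3.30 and 4.28) were also highest in EQ, below the 2-fold limit. After centring, NOTCH1 was nearly level in EQ and EC. The ligand JAG1 was instead highest in the fibers, with 31.4 FPKM in EQ, against 4.74 in EC, 100 in FP and 84.9 in FC. Not all targets followed, since the 2 loci named HES4 were highest in EC (52.4 FPKM in EQ, against 80.4 in EC, and 6.11, against 14.9).

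Among receptors for growth factors, FGFR2 was the only member of the FGF list that passed, 1 of 16. It had 56.7 FPKM in EQ (12.6 to 101), against 15.7 in EC, 7.95 in FP and 8.65 in FC, 3.00-fold above EC. The more abundant FGFR3 (154 FPKM in EQ, against 198 in EC, 64.3 in FP and 55.1 in FC) and FGFR1 (71.4, against 72.9, 48.6 and 58.1) were no higher in EQ than in EC. SPRY2, a feedback inhibitor of receptor tyrosine kinases, had 13.6 FPKM in EQ, against 6.06 in EC, 3.37 in FP and 4.18 in FC, a log2 ratio of 0.89. In the list of the insulin-like and platelet-derived growth factor pathways, 1 of 11 genes was higher, PDGFRA, with 88.8 FPKM in EQ (17.0 to 161), against 17.5 in EC, 8.79 in FP and 12.4 in FC. PDGFRA and TAGLN also stand in the list of mesenchyme markers, of which 2 of 7 were higher in EQ, whereas COL1A2 had 2.74 FPKM in EQ, against 8.41 in EC, 1.28 in FP and 1.35 in FC, and POSTN had 1.88, against 3.50, 1.57 and 1.73. In the Wnt list 2 of 31 were higher, the receptor FZD10 (17.2 FPKM in EQ, against 2.61 in EC, 4.66 in FP and 5.69 in FC) and the agonist RSPO2 (1.17, against 0.365, 0.349 and 0.145). The receptor FZD8 was lower, with 0.772 FPKM in EQ, against 2.48 in EC, 3.70 in FP and 4.91 in FC. DKK3 and WNT2B, the most abundant Wnt list members in EQ, lay between the other regions, with 766 FPKM of DKK3 in EQ, against 126 in EC, 1229 in FP and 1311 in FC, and 156 FPKM of WNT2B in EQ, against 413 in EC, 41.1 in FP and 46.4 in FC.

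**Figure D4:**
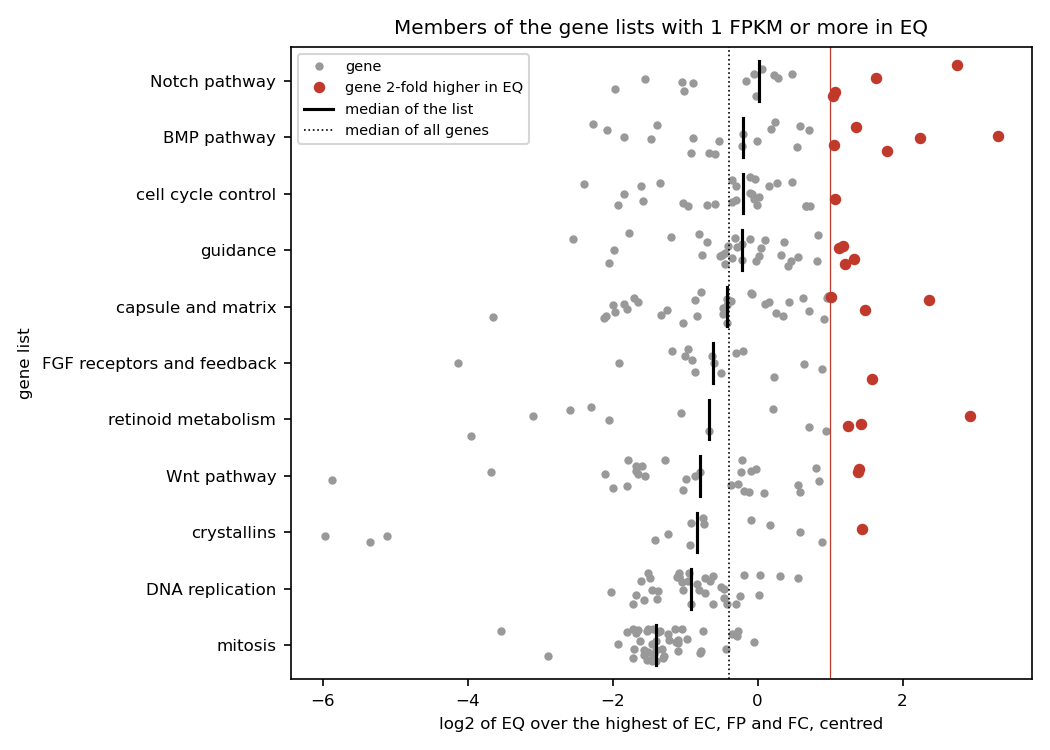
The log2 ratio of centred FPKM in EQ over the highest of EC, FP and FC for the members of 11 gene lists with 1 FPKM or more in EQ (grey points), with list medians (black bars), the median of all genes (-0.39, dotted line) and the 2-fold limit (red line). The red points are the genes 2-fold higher in EQ, 5 in the BMP list, 4 in the Notch list and 0 among DNA replication and mitosis genes, whose medians lie furthest to the left.

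The median gene of mitosis was lower in EQ than in EC and higher in EQ than in the fibers. None of 46 mitosis genes past the minimum was highest in EQ by any margin, and their median log2 ratio was -1.39 against EC, 1.40 against FP and 1.68 against FC. The DNA replication genes had a median of -0.81 against EC, 0.97 against FP and 1.03 against FC, and 4 of 37 were highest in EQ by any margin, 0 of them by 2-fold. TOP2A, the topoisomerase of dividing cells, had 11.0 FPKM in EQ, against 28.4 in EC, 3.54 in FP and 3.33 in FC, and PCNA, the sliding clamp of replication, had 76.4, against 105, 34.1 and 46.9. Within the division lists, 2 genes were lower in EQ than everywhere else, and neither stayed past the limit without centring (log2 ratios of -0.86 and -0.83). CDC20, an activator of the anaphase-promoting complex, had 9.76 FPKM in EQ (3.92 to 15.6), against 17.7 in EC, 46.2 in FP and 62.6 in FC, and the licensing factor CDC6 had 0.721 FPKM in EQ, against 2.93 in EC, 1.97 in FP and 1.28 in FC. Of the cell cycle control genes, 8 of 28 were highest in EQ by any margin and 1 by 2-fold, cyclin D1 (CCND1), with 66.9 FPKM in EQ (7.62 to 158), against 26.5 in EC, 14.0 in FP and 19.2 in FC. MYCN had 85.9 FPKM in EQ, against 43.3 in EC, 17.6 in FP and 22.4 in FC, short of the limit with a log2 ratio of 0.72. The inhibitor CDKN1B, which holds cells out of the cycle, was highest in EQ only as deposited, with 97.8 FPKM, against 35.9 in EC, 60.1 in FP and 86.3 in FC, and after centring its log2 ratio was -0.03.

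Of 14 crystallin genes, CRYBB2 alone was 2-fold higher in EQ. It had 34093 FPKM in EQ (1823 to 66269), against 5249 in EC (749 to 9732), 9423 in FP (526 to 18276) and 10780 in FC (550 to 21009), 2.73-fold above FC with overlapping intervals. CRYBA2 and the chaperone-like CRYAA were the 2 most abundant of these 14 genes in EQ. Both were also highest there, with log2 ratios of 0.89 and 0.59. In contrast, CRYBB1 had 694 FPKM in EQ, against 159 in EC, 19219 in FP and 37643 in FC. The authors report that delta-crystallin was left out of their estimates because its reads passed the program's default limit. The order of crystallins given here therefore does not cover it. No gene of the lens transcription factor list passed the limit in either direction (0 of 28 higher and 0 of 26 lower). PITX3 and PAX-6, the most abundant of these in EQ, had 400 FPKM (308 in EC, 788 in FP, 824 in FC) and 208 FPKM (311 in EC, 57.0 in FP, 57.9 in FC).

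The retinoid list held 3 higher genes among 13, with a median of -0.67. Besides CYP1B1 these were CYP26A1 and CYP26C1, which degrade retinoic acid. CYP26A1 had 11.4 FPKM in EQ (4.35 to 18.4), against 3.50 in EC, 1.25 in FP and 1.61 in FC, and CYP26C1 had 5.71 FPKM in EQ (2.21 to 9.25), against 2.00 in EC, 0.521 in FP and 0.667 in FC. The third enzyme of that family, CYP26B1, had another pattern, with 1.41 FPKM in EQ, against 18.2 in EC, 1.73 in FP and 0.962 in FC. DHRS3, which reduces retinal to retinol, was lower in EQ, with 2.08 FPKM, against 4.13 in EC, 7.74 in FP and 10.9 in FC, although without centring its log2 ratio was -0.99. The retinol receptor STRA6 and the binding protein RBP5, next to CYP1B1 in abundance, were highest in EC (146 FPKM in EQ, against 592 in EC, for STRA6, and 108, against 143, for RBP5). CYP1A4, which like CYP1B1 responds to the aryl hydrocarbon receptor, had 109 FPKM in EQ (36.7 to 180), against 12.2 in EC, 35.8 in FP and 26.1 in FC, but chickens carry a close paralog with which it can share reads. It belongs to no list and was picked after its values were seen.

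Of the capsule and matrix genes, 3 of 36 were higher in EQ, THBS1, FREM1 and FRAS1, and 1 of 31 was lower, TIMP3. FREM1 and FRAS1, which form a complex in embryonic basement membranes of mice, had 6.83 FPKM in EQ (2.02 in EC, 0.774 in FP, 0.970 in FC) and 9.79 FPKM (2.17 in EC, 3.94 in FP, 3.50 in FC). TIMP3, an inhibitor of metalloproteinases, had 1.25 FPKM in EQ, against 6.94 in EC, 8.08 in FP and 13.5 in FC, but all 4 intervals started at 0. SPARC and SPON1, the most abundant matrix genes in EQ, were within 2-fold of the next region (4775 FPKM of SPARC in EQ, against 2560.3 in EC, and 604 FPKM of SPON1 in EQ, against 673 in EC). Of the adhesion genes, 2 of 28 were higher, the gap junction gene GJA1 with 817 FPKM in EQ (28.9 to 2073), against 336 in EC, 96.2 in FP and 123 in FC, and NCAM1 with 71.6, against 26.0, 22.1 and 24.0. The guidance list held 4 of 34, the ephrin EFNB2 (79.4 FPKM in EQ, against 28.6 in EC, 19.5 in FP and 22.5 in FC), SEMA3G (7.18, against 1.27, 0.777 and 2.45), SEMA6A (4.31, against 1.57, 1.40 and 0.998) and the semaphorin receptor NRP2 (2.64, against 1.00, 0.644 and 0.761). ANXA1 was the second gene outside the limit, with 60.6 FPKM in EQ, against 2.01 in EC, 22.5 in FP and 26.3 in FC, and 0 of 8 annexins passed. Among the neuropeptide genes, 2 of 10 were higher, TAC1, the substance P precursor, with 49.5 FPKM in EQ (20.5 to 78.5), against 10.9 in EC, 4.65 in FP and 6.38 in FC, and NPY with 30.1, against 2.02, 10.2 and 9.92. In the sterol synthesis list (20 genes), the mitochondrial dynamics list (29) and the cytosolic ribosome list (66), 0 genes were higher in EQ, which is near the 1.9% of all genes at these list sizes.

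Ion transport genes were examined after their values had been seen, so their counts are a description only. Of 21 sodium pump and potassium channel genes past the minimum, 6 were higher in EQ. Among them, the sodium pump subunit ATP1B3 had 153 FPKM in EQ, against 46.1 in EC, 37.5 in FP and 39.8 in FC, whereas ATP1B1 had 28.9, against 12.8, 43.1 and 36.5. The channel-interacting proteins KCNIP2 (130 FPKM in EQ, against 34.6 in EC, 31.2 in FP and 41.3 in FC) and KCNIP4 (34.2, against 8.75, 3.56 and 4.28) and the pump interactor NKAIN1 (2.59, against 0.991, 1.02 and 0.373) were higher beside KCNV1. Outside these lists, the cytokine MIF was the most abundant higher gene after CRYBB2, with 13414 FPKM in EQ (1481 to 25354), against 3733 in EC, 2684 in FP and 3254 in FC.

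Solute carriers, another group examined after its values had been seen, held 6 higher genes among 164 (3.66%, against 1.9% of all genes tested). They held 5 lower genes among 147, against 1.47% of all genes tested, and their median was -0.33. The neutral amino acid carriers SLC38A2 (258 FPKM in EQ, against 54.7 in EC, 22.9 in FP and 30.2 in FC) and SLC1A4 (75.8, against 24.8, 21.1 and 21.2) were the most abundant of the higher ones. SLC16A5, of the monocarboxylate carrier family, had 53.7 FPKM in EQ, against 13.7 in EC, 16.1 in FP and 15.1 in FC, SLC26A7 had 11.1, against 4.52, 1.10 and 0.945, and the zinc carrier SLC30A2 had 3.44, against 0.607, 0.166 and 0.486. Among the lower ones were the zinc carrier SLC39A8 (0.559 FPKM in EQ, against 2.54 in EC, 10.4 in FP and 8.05 in FC), the vesicular amine carrier SLC18A1 (0.892, against 1.68, 2.10 and 2.06), the magnesium carrier SLC41A1 (4.86, against 8.62, 8.56 and 8.93) and SLC24A6 (4.15, against 6.88, 13.6 and 12.2), of which the last 3 did not reach 2-fold without centring. The SLC41A1 locus is merged with the microRNA gga-mir-6602, and its EQ interval of 0.776 to 79.9 covered the FPKM of every other region.

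The remaining higher genes named here belong to no list and were picked for abundance or for intervals, after their values were seen. C5ORF13 had 668 FPKM in EQ, against 235 in EC, 111 in FP and 136 in FC, and the selenium carrier SEPP1 had 427, against 132, 58.5 and 64.2. The actin-binding protein COTL1 was higher in the fibers than in EC, with 377 FPKM in EQ, against 53.2 in EC, 134 in FP and 155 in FC. The bZIP transcription factor TEF, which is under circadian control in other tissues, had 192 FPKM in EQ, against 36.6 in EC, 18.3 in FP and 22.9 in FC, and NFIL3, which binds the same sites as a repressor, had 12.6, against 4.63, 2.53 and 2.88. Both were past the threshold, at log2 ratios of 2.12 and 1.18. The chemokine scavenger CXCR7 had 51.9 FPKM in EQ, against 12.9 in EC, 8.46 in FP and 13.3 in FC, and the epidermal growth factor receptor EGFR had 3.4, against 0.786, 0.627 and 0.819. In both, the lower bound in EQ lay above the FPKM of every other region, as it did for the kinase CDK14 (11.7 FPKM in EQ, against 1.43 in EC, 1.55 in FP and 2.01 in FC) and GCHFR, a regulator of tetrahydrobiopterin synthesis (46.7, against 4.25, 9.2 and 9.27). Within a family of receptors for GABA, GABRA3 had 81.7 FPKM in EQ, against 8.13 in EC, 31.8 in FP and 32.4 in FC, and was thus closer to the fibers than to EC. WEE1, the kinase that delays entry into mitosis, had 43.7 FPKM in EQ, against 17.4 in EC, 4.69 in FP and 6.17 in FC, 1.06 on the log2 scale.

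Of the lower genes, 3 had an EQ interval below all others. PAPLN, the matrix proteoglycan-like papilin, had 0.259 FPKM in EQ (0.0413 to 0.496), against 2.06 in EC (0.661 to 3.43), 1.91 in FP (0.702 to 3.10) and 2.34 in FC (0.909 to 3.76), 9.07-fold below the lowest. IRK1, an inward rectifier potassium channel whose older symbol kept it out of the channel list above, had 0.523 FPKM in EQ (0.0745 to 0.968), against 4.92 in EC (1.64 to 8.27), 4.18 in FP (1.34 to 7.08) and 3.38 in FC (1.12 to 5.59), 7.50-fold lower. MAPK10, the stress-activated kinase JNK3, was the only one of them with 5 FPKM or more in EQ, with 7.44 FPKM in EQ (2.95 to 11.9), against 35.0 in EC (14.7 to 55.4), 60.6 in FP (21.3 to 99.8) and 61.1 in FC (24.4 to 97.6), 5.68-fold lower. The first 2 were even across the other regions, and MAPK10 was higher in the fibers than in EC.

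The small heat shock protein HSPB1 had 7.96 FPKM in EQ (2.12 to 12.5), against 34.4 in EC (9.98 to 52.2), 47.9 in FP (12.7 to 81.1) and 43.3 in FC (14.0 to 70.9), and was the only lower gene among 22 heat shock genes. The nuclear receptor NR2F1 (COUP-TF1) had 1.30 FPKM in EQ (0.150 to 2.55), against 10.5 in EC (0.843 to 22.5), 7.95 in FP (2.99 to 13.0) and 13.4 in FC (4.34 to 22.5). PTRF, the caveolar coat protein cavin 1, had 7.77 FPKM in EQ (2.71 to 12.8), against 61.7 in EC (10.04 to 156), 831 in FP (0.218 to 2250) and 1239 in FC (0.741 to 3158). Its level was highest in the fibers, with intervals that start below that of EQ, and it was 9.60-fold lower in EQ than in EC. CSDC2 (9.83 FPKM in EQ, against 30.3 in EC, 105 in FP and 102 in FC) and the phospholipid flippase ATP8A2 (1.80, against 5.53, 73.5 and 72.7) were likewise higher in both fiber regions than in EC, and lowest in EQ. The 2 largest ratios, PLEKHG4 (1.46 FPKM in EQ, against 38.2 in EC, 116 in FP and 203 in FC) and the phosphatase DUSP1 (0.656, against 8.90, 19.1 and 12.3), came from loci merged with a microRNA. The same holds for RPS12, a ribosomal protein gene merged with SNORD100, with 866 FPKM in EQ, against 1954 in EC, 3577 in FP and 2473 in FC. For DUSP1 the EQ interval of 0 to 19.8 covered the deposited FPKM of every other region, although FP was above it after centring (23.5). Other lower genes, again picked after their values were seen, were mostly highest in the fibers. The kainate receptor subunit GRIK3 had 0.504 FPKM in EQ, against 2.68 in EC, 34.0 in FP and 48.2 in FC, and adenosine deaminase (ADA) had 3.33, against 5.85, 121 and 129, which without centring is 1.76-fold below EC and thus short of the limit. EDNRB, an endothelin receptor, had 4.33 FPKM in EQ, against 12.0 in EC, 29.5 in FP and 30.0 in FC. Creatine kinase CKB was instead highest in EC, with 22.3 FPKM in EQ (0 to 58.7), against 83.4 in EC, 45.6 in FP and 52.9 in FC, as was the transferrin receptor TFRC, with 4.13, against 26.1, 9.20 and 10.3. In CKB the EQ interval reached above the deposited FPKM of both fiber regions, and after centring above that of FP (56.2) but not of FC (61.4). EC was 2-fold above both fiber regions at 7 of the 122 lower genes and the highest of all regions at 25, again without a share over all genes. The Hedgehog target GLI1 had 0.815 FPKM in EQ, against 1.65 in EC, 4.76 in FP and 4.81 in FC, and LATS2, a kinase of the Hippo pathway, had 1.14, against 3.18, 3.61 and 4.14.

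**Figure D5:**
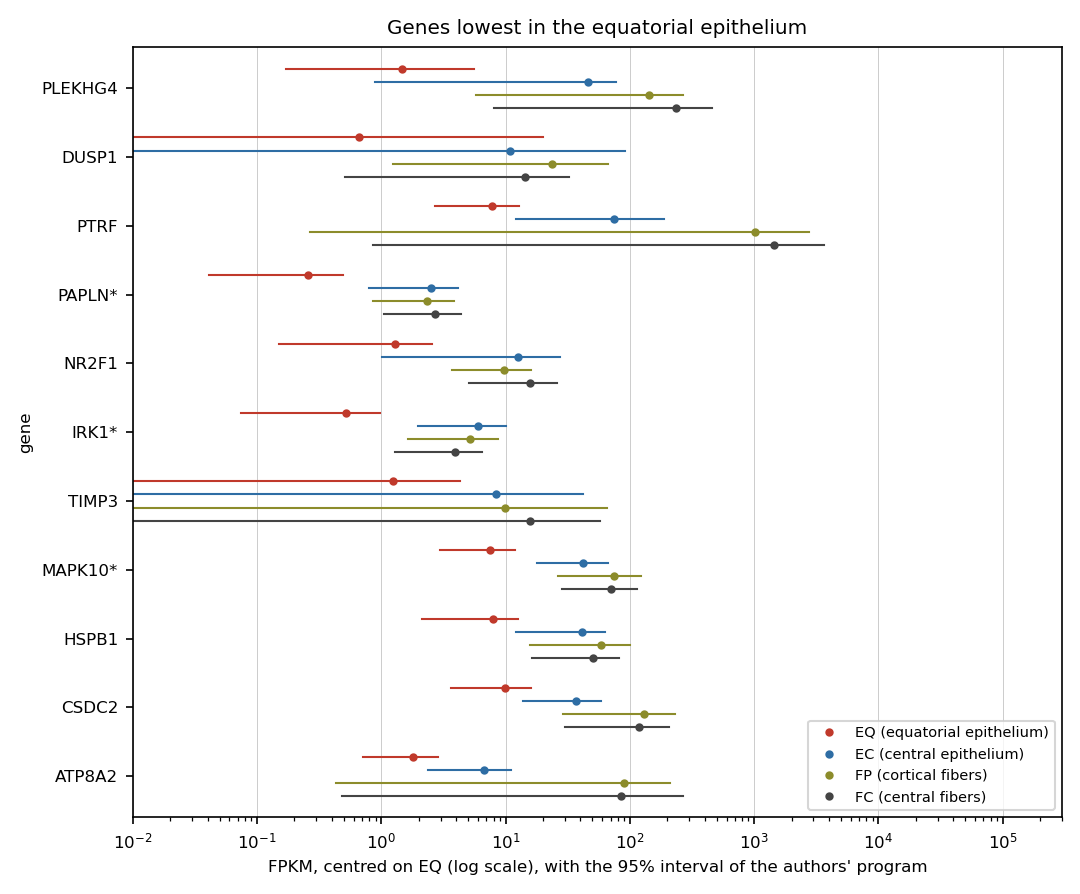
Centred FPKM on a log axis in EQ (red), EC (blue), FP (olive) and FC (grey), as points with their 95% intervals, for 9 of the 10 lower genes with the lowest ratio and 5 FPKM or more in all other regions and for the genes whose EQ interval lies below the others (asterisks). Bounds at 0 run to the left edge, and in all genes shown except NR2F1, PAPLN and IRK1 the level in EC lies between EQ and both fiber regions.

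Genes that cells induce quickly after a stimulus or under stress were compared as a list, which was drawn up after several had been seen among the lower genes. Of 10 such immediate early and stress genes past the minimum, 6 were lower in EQ, and 4 with 1 FPKM added, without FOS and HMOX1. The share over all genes tested was 1.47%, but the count cannot be weighed against it, because the list was drawn up from these same data. FOS had 0.294 FPKM in EQ (0 to 1.03), against 1.41 in EC (0 to 2.20), 1.21 in FP (0.147 to 2.20) and 1.07 in FC (0.147 to 1.91). RASD1 had 1.08 FPKM in EQ (0.290 to 1.83), against 57.7 in EC (21.1 to 94.0), 3.10 in FP (1.16 to 5.02) and 4.37 in FC (1.26 to 7.43), and RGS2 had 0.671, against 13.8, 1.95 and 4.38. HMOX1, with 0.491 FPKM in EQ, against 1.08 in EC, 3.50 in FP and 9.64 in FC, joined HSPB1 and DUSP1 in this group. JUN went against it, with 67.0 FPKM in EQ, against 23.7 in EC, 98.4 in FP and 138 in FC, as did BTG2, with 7.77, against 4.06, 1.59 and 1.44.

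The labels were compared with cell type markers. The summed FPKM of 12 lens fiber markers was 1819 in EQ, against 677 in EC, 50459 in FP and 79864 in FC, and that of 11 lens epithelium markers was 1342 in EQ, against 1853 in EC, 273 in FP and 338 in FC. Red blood cell markers summed to 173 FPKM in EQ, against 1059 in EC, 218 in FP and 323 in FC, nearly all of it hemoglobin, and 2 of the 10 were at 0 in EQ, both loci named HBZ. Retinal and neuronal genes summed to 65.7 FPKM in EQ, against 186 in EC, 132 in FP and 158 in FC, of which a locus merged from GNAT1 and SEMA3F gave 40.8 in EQ, against 139.6 in EC, 18.6 in FP and 18.1 in FC, and TUBB3 gave 3.78 in EQ, against 3.99, 67.0 and 80.7. Of 7 of them past the minimum, 3 were lower in EQ, the neurofilament genes NEFM (0.428 FPKM in EQ, against 4.74 in EC, 1.67 in FP and 1.60 in FC) and NEFL (0.794, against 2.20, 21.3 and 29.2) and the retinal ganglion cell factor ATOH7 (0.419, against 3.88, 1.45 and 3.11). CRX, a photoreceptor transcription factor, had 0.293 FPKM in EQ, against 5.08 in EC, 1.02 in FP and 0.964 in FC. The part of such cells in the lower genes was not tested. The pigmented and ciliary epithelium markers summed to 951 FPKM in EQ, against 680 in EC, 663 in FP and 1122 in FC, of which PTGDS gave 546 in EQ, against 157, 567 and 1018, and 0 of the 8 past the minimum were highest in EQ. Endothelium markers summed to 22.4 FPKM in EQ, against 36.6 in EC, 11.1 in FP and 9.87 in FC, leukocyte markers to 32.3, against 20.5, 17.2 and 20.2, and mesenchyme markers to 147, against 69.2, 38.7 and 40.3. Most of the mesenchyme sum was PDGFRA and TAGLN, and the other 15 markers summed to 28.5 FPKM in EQ, against 42.8 in EC, 24.1 in FP and 22.8 in FC. The part of mesenchyme in the higher genes was not tested.

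Genes that distinguish epithelium from fibers showed where EQ stood between them. Of 580 genes that were 4-fold or more higher in the fiber mean than in EC, 516 were nearer to EC than to the fibers in EQ on the log2 scale, and the median gene had covered 14.3% of the way. At 133 of the 580, EQ lay below EC, on the far side from the fibers. Of 403 genes that were 4-fold or more higher in EC than in the fiber mean, the median gene had covered 39.1% of the way, and 43 were higher in EQ than in EC. All these values follow the centring, which raised EC by 0.27 on the log2 scale against EQ. That step made the 14.3% smaller and the 39.1% larger than on deposited values. It also added to the 133 genes and took from the 43. Both percentages are given only with centring, so no order of change can be read from their difference.

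Some higher genes lay side by side on the chromosomes. There were 13 pairs of immediate neighbors among loci with a symbol in which both were higher in EQ, and these held 24 of the 175 genes. Of the 265 loci next to a higher gene that passed the minimum, 24 (9.06%) were higher themselves, against the 1.9% of all genes tested. For the lower genes it was 3 of 162 (1.85%), against 1.47%. Whether neighbors, some of which belong to the same family, share reads was not tested. CER1 and FREM1 lie 9.09 kb apart on chromosome Z (31561573 to 31567431 and 31576518 to 31643574), and CYP26A1 and CYP26C1 1.44 kb apart on chromosome 6 (20110079 to 20114607 and 20116052 to 20123525). STEAP1, STEAP2 and C7ORF63 follow each other on chromosome 2, where STEAP2 had 4.97 FPKM in EQ, against 1.30 in EC, 0.598 in FP and 0.860 in FC, and C7ORF63 had 11.2, against 2.78, 1.26 and 1.04. MXRA5, ARSH and ARSD follow each other on chromosome 1, where ARSH had 110 FPKM in EQ (9.83 to 210), against 11.3 in EC, 24.2 in FP and 30.9 in FC, and ARSD had 4.87, against 0.744, 1.95 and 1.94. The only run of lower genes was DOCK5, NEFL and NEFM on chromosome 22.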

How the data were processed

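Reads of the 8 libraries had been aligned by the authors to the chicken assembly Galgal4 with TopHat, and levels were estimated with Cufflinks and Cuffdiff (Cuffdiff 2.1.1 per the submitters' processing notes). The deposited table gives FPKM per locus and region, pooled over 2 libraries, with 95% interval bounds, for 16906 loci. A second deposited table, which holds the authors' own fold changes, p-values and q-values, was not used. Columns of per-sample values that were left out numbered 0. Sample groups came from the GEO labels.

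Names of small RNAs, RNA families and unnamed Ensembl or UniGene entries were not taken as gene symbols, and 127 loci with a symbol carry more than 1 name. No value was added to the FPKM. Of the symbols, 171 of the 175 higher and 116 of the 122 lower genes were found in the RefSeq gene table of assembly GRCg7b, which was used for names only. Promoter motifs were not analysed here, and a few genes that the counts include are not reported here by name. Single genes were named by rule: the 15 largest higher ratios (5 FPKM or more in EQ) and the 10 largest lower ratios (5 FPKM or more in the 3 others), all genes with separate intervals, list members past 2-fold with the 2 most abundant members of each main list, and the genes next to the thresholds; others are said to have been chosen after their values were seen or serve as contrasts within a list. The comparison and the lists were chosen with earlier results of these data known. The computation of the rule was tested on simulated data, with much narrower intervals than the real ones and no weakly expressed genes. That test does not measure how reliable the calls in these data are. Alternatives changed the centring, the minimum, the fold, the added value, the loci and the regions compared. Python 3.11.15, numpy 2.4.6, pandas 2.3.3 and matplotlib 3.10.9 were used.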

Additional observations from a re-analysis of the deposited data

How the results depend on the processing

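Without centring, 285 genes were higher and 78 lower in EQ, 15 higher genes had separate intervals, and EQ held 28.1% of the genes highest and 14.1% of the genes lowest in 1 region. Under upper quartile centring 213 genes were higher and 101 lower. The 175 higher genes were among those found under both. This had to be so, because both alternatives raise EC, FP and FC less than the median centring does. With 1 FPKM added, 53 genes were lower. With a minimum of 5 FPKM, 40 were lower, 1 of them with separate intervals, and EQ held 17.5% of the genes lowest in 1 region; without a minimum 455 were lower. A 1.5-fold limit gave 415 higher and 304 lower genes, and a 3-fold limit 68 and 49. Against the EQ lower bound, an alternative chosen after seeing the data, 56 genes were higher. Without centring 78 of the 122 lower genes kept 2-fold, whereas the 175 higher genes could not lose it. With 1 FPKM added, 128 higher and 53 lower genes kept 2-fold. Under any centring, the added 1 FPKM or other choices of regions, 0 of the 89 genes that the naming rule chose past 2-fold changed direction. This outcome was fixed beforehand, since such changes cannot turn a 2-fold ratio round. Of these 89, 7 dropped under 2-fold without centring and 21 with 1 FPKM added. They include FOS, BMP4, NEFM, ATOH7, HMOX1, RSPO2, SEMA6A, NRP2 and FRAS1. Of the others named, ADA lost 2-fold under both and GLI1, ARSD and MLN with 1 FPKM added. Without centring the higher members of the Wnt list numbered 4, of the capsule and matrix list 6 and of the guidance list 6, while the BMP list held 5 and the Notch list 4. The 9 genes with separate intervals were found under every alternative run for them, although weaker centring or fewer regions could not have removed them. No library could be left out in turn and no paired analysis was possible because the deposited values are pooled over both libraries. The intervals of abundant genes are wide.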
